A study of Homo sapiens with 12 samples.

Results

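The BCL2 family sets whether a cell releases cytochrome c from its mitochondria and dies by apoptosis, and 10 of its genes are described here in C4-2 prostate cancer cells. They were taken by symbol from the authors' count table and were 10 of its 56269 symbols. The genes are the survival members BCL2, BCL2L1, BCL2L2 and MCL1, the BH3-only members BAD, HRK, BMF, BIK and BCL2L11, and the mitophagy receptor BNIP3L. All 10 passed the filter on low counts. HRK did so only through the vehicle libraries, since 0 of 3 DHT libraries under either siRNA reached the limit of 0.385 CPM.

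C4-2 is a castration-resistant line derived from LNCaP. The 4 groups were paxillin siRNA with DHT, paxillin siRNA with vehicle, nonspecific siRNA with DHT and nonspecific siRNA with vehicle, with 3 libraries each. In every group cells were exposed to siRNA for 48 h, kept in medium without serum for 12 h and then treated for 24 h. DHT, the androgen dihydrotestosterone, was given at 2.5 nM, and the vehicle was ethanol. Paxillin, encoded by PXN, is an adaptor protein of focal adhesions. Neither the siRNA sequences nor the number of siRNAs per target is given in the sources used here. Nothing in the labels says that replicates came from separate cultures. The p-values therefore rest on the spread among these libraries, which may be technical.

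Survival members hold the pore-forming relatives BAX and BAK1 in check at the outer mitochondrial membrane. BH3-only members respond to stress, bind the survival members through a short helix and so release BAX and BAK1. Prostate tumour cells are known to rely on several survival members, and loss of androgen, growth factor or attachment signals is known to engage BH3-only proteins such as BCL2L11 (BIM) and BMF.

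Libraries held 11944906 to 32040465 counts, the lowest in nonspecific vehicle replicate 1. Levels are counts per 1e+06 counts (CPM) of library totals scaled by TMM, and 1 count equalled 0.0328 to 0.0815 CPM. PXN had 14.2, 11.3 and 9.36 CPM in paxillin DHT libraries against 136, 121 and 122 CPM in nonspecific DHT libraries, a fall of 90.8%. It had 16.7, 12.4 and 12.3 CPM in paxillin vehicle libraries against 149, 139 and 151 CPM in nonspecific vehicle libraries, a fall of 90.6%. FKBP5, a classical androgen target, averaged 1020 ± 120 CPM in paxillin DHT and 47.7 ± 1.75 CPM in paxillin vehicle, and 1230 ± 169 CPM in nonspecific DHT and 47.5 ± 2.29 CPM in nonspecific vehicle (SD, n = 3 each). All 8 prostate luminal markers were tested, and their summed level moved with treatment, at 15000 to 15800 CPM in paxillin DHT and 7320 to 8580 CPM in paxillin vehicle, and at 15900 to 16800 CPM in nonspecific DHT and 7890 to 9370 CPM in nonspecific vehicle. Basal markers summed to at most 0.637 CPM and immune markers to at most 0.408 CPM. Of the fibroblast and endothelial markers, COL1A1 (24.8 to 47.6 CPM as the list's sum) and VWF (8.3 to 15 CPM as the list's sum) were tested. COL1A1 was lower with paxillin siRNA in DHT and in vehicle (log2 fold changes -0.44 ± 0.09 and -0.27 ± 0.09, edgeR adjusted p = 0.0024 and 0.0356, the second up to 0.17 when 1 library, nonspecific vehicle replicate 1, was left out) and lower with DHT under paxillin siRNA (-0.37 ± 0.09, edgeR adjusted p = 0.00226), while COL1A2, DCN, PECAM1 and CDH5 had at most 4 counts summed over any group. The part of these markers in the results was not tested.

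DHT moved the family in both directions, and the survival members split. With either siRNA, BCL2L1 (BCL-xL) and BCL2L2 (BCL-w) rose while MCL1 fell. Among the BH3-only members BIK rose and BMF fell about as much as MCL1 or more. BNIP3L rose by a small amount, and BAD and BCL2 did not pass the test. HRK, close to silent throughout, had fewer counts in DHT.

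The 6 of 10 members with an entry in the RefSeq promoter table (GRCh38.p14) gave 9 windows, since BCL2L1, BAD and BMF have more than 1 listed start. MCL1, BCL2L2, BIK and BNIP3L had no entry. The 250 bases before the start are shown for BCL2L1, which rose with DHT, for BMF, which fell, and for HRK, the BH3-only member nearest to silence, all on the minus strand and written 5′ to 3′ towards the gene. The BCL2L1 window is chr20:31723964-31724213, the BMF window is chr15:40108880-40109129 and the HRK window is chr12:116881442-116881691. Capitals mark TATAAA in BCL2L1 and the GC box GGGCGG or its reverse complement CCGCCC in BMF and HRK.
BCL2L1: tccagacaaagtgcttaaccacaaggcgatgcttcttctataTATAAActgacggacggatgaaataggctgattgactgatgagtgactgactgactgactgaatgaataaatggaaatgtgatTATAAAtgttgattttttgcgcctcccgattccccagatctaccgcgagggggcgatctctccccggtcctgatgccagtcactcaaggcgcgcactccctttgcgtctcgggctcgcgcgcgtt
BMF: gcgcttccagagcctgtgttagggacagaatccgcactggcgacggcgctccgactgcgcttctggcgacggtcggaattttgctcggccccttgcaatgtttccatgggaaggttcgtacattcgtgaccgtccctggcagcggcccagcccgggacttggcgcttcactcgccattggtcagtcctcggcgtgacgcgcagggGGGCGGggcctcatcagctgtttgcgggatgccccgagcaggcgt
HRK: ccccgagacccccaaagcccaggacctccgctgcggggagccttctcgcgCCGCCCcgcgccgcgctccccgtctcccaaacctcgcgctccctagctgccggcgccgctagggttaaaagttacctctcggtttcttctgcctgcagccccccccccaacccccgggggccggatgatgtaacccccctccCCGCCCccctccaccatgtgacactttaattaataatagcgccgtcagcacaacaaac
Motifs were searched on both strands, and the matches shown do not overlap each other. The androgen receptor half-site AGAACA (reverse complement TGTTCT) was in 0 of the 9 windows, against 12.4% of 35116 promoter windows of the same length. The full palindromic element, AGAACA followed by NNN and then TGTTCT, was in 0 of the 9, against 0.00285% of all windows. TATAAA, searched with its reverse complement TTTATA, began 208 and 125 bases before the BCL2L1 start shown, and 10.7% of all windows held it. The window of the other BCL2L1 start, chr20:31722869-31723118, did not hold it. The GC box began 45 bases before the BMF start shown and 200 and 58 bases before the HRK start, and 42.6% of all windows held it. The window of the other BMF start, chr15:40106967-40107216, lacked the GC box. The FOXO motif GTAAACA, searched with its reverse complement TGTTTAC, was in BCL2L11 alone among the 9 windows, 223 bases before its start, and in 2.98% of all windows. These windows cover only the bases next to the start, and enhancers were not searched.

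Under paxillin siRNA, 7 of 10 members passed the edgeR quasi-likelihood test for DHT (4 higher and 3 lower), where 38% of 16115 tested genes passed, 20.1% higher and 17.9% lower. Under nonspecific siRNA, 8 of 10 passed (4 higher and 4 lower), where 40.5% of tested genes passed, 21.6% higher and 18.9% lower. The libraries of DHT and vehicle did not overlap for 7 members under paxillin siRNA (4 higher, 3 lower), as for 48.6% of tested genes, 25.3% higher and 23.3% lower. Under nonspecific siRNA they did not overlap for 9 members (4 higher, 5 lower), as for 50.4% of tested genes, 26.3% higher and 24% lower. HRK is among the lower genes in these counts and is part of the medians below, and it entered the test only through its vehicle libraries. The members' median absolute log2 fold change was 0.43 under paxillin siRNA and 0.67 under nonspecific siRNA, against 0.25 and 0.27 over all tested genes. Signed medians were -0.10 and -0.12, against -0.01 and -0.01. The members were chosen with earlier results of these data known, so the comparison with all tested genes is only a description. With upper-quartile scaling, all tested genes split into 2262 higher and 3935 lower under paxillin siRNA and 2707 higher and 3896 lower under nonspecific siRNA, against 3234 and 2886, and 3481 and 3053, with TMM. That scaling ended the calls of BNIP3L and turned the DHT direction of no member that passed. BAD, which did not pass, changed sign under nonspecific siRNA, from a log2 fold change of 0.01 with TMM.

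**Figure D1:**
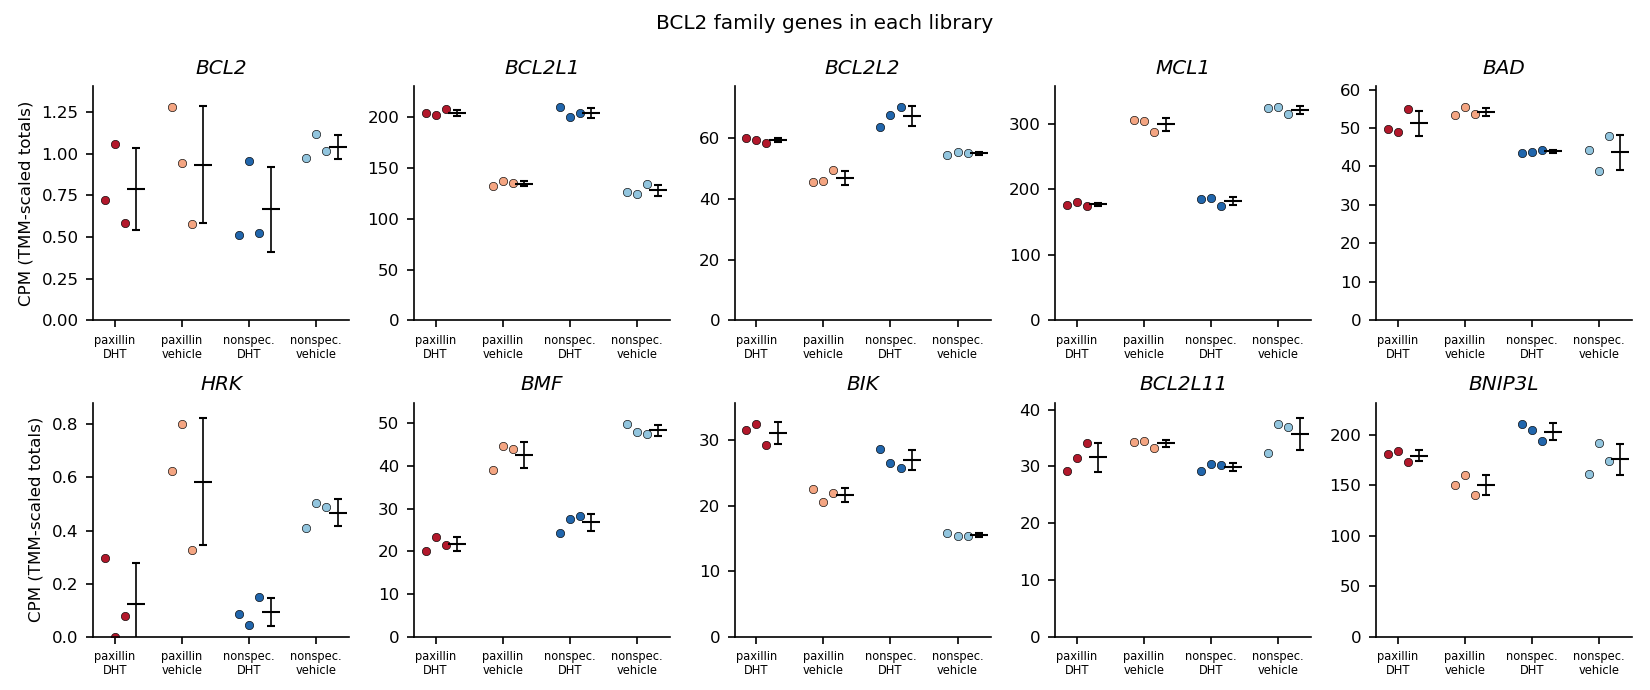
Level of each of the 10 genes in CPM of TMM-scaled totals, with 1 point per library in 4 groups of 3 and the mean and SD beside them (the SD bar of HRK in paxillin DHT is drawn down to 0). MCL1 and BMF are lower and BCL2L1, BIK and BCL2L2 higher in DHT than in vehicle under both siRNAs, with no overlap between the groups.

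MCL1 encodes a short-lived survival protein (chromosome 1, 150574551 to 150579738, GRCh38). It stood at 176, 180 and 175 CPM in paxillin DHT libraries, against 306, 304 and 288 CPM in paxillin vehicle libraries. It stood at 185, 186 and 175 CPM in nonspecific DHT libraries, against 324, 325 and 314 CPM in nonspecific vehicle libraries. Every DHT library lay far below every vehicle library, whichever siRNA was used. The log2 fold change was -0.76 ± 0.06 (SE) under paxillin siRNA and -0.82 ± 0.06 under nonspecific siRNA, with edgeR Benjamini-Hochberg adjusted p = 4.67e-09 and 1.87e-09. As in any bulk sample, fewer cells expressing a gene and less RNA per cell cannot be told apart.

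BCL2L1 moved the other way (chromosome 20, 31664452 to 31723989). It stood at 204, 202 and 208 CPM in paxillin DHT libraries, against 132, 137 and 135 CPM in paxillin vehicle libraries. In nonspecific DHT libraries it stood at 210, 200 and 204 CPM, against 126, 124 and 134 CPM in nonspecific vehicle libraries. The DHT levels were nearly the same under both siRNAs, and DHT and vehicle did not overlap. The rise was 1.52-fold under paxillin siRNA and 1.6-fold under nonspecific siRNA (edgeR adjusted p = 6.65e-08 and 1.88e-08). BCL2L1, MCL1 and BCL2L11 are known to be spliced into forms of differing activity, and gene counts sum over those forms.

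BCL2L2, a further survival gene (chromosome 14, 23298790 to 23311759), had a smaller rise. It stood at 60, 59.6 and 58.6 CPM in paxillin DHT libraries, against 45.6, 45.9 and 49.7 CPM in paxillin vehicle libraries. It stood at 63.8, 67.8 and 70.3 CPM in nonspecific DHT libraries, against 54.5, 55.6 and 55.1 CPM in nonspecific vehicle libraries. The groups did not overlap under either siRNA, and the log2 fold changes were 0.34 ± 0.06 and 0.29 ± 0.06 (edgeR adjusted p = 0.000187 and 0.000768).

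BCL2 itself, the founding survival gene (chromosome 18, 63123346 to 63320128), was scarcely expressed, with 12 to 39 counts per library. It had 0.721, 1.06 and 0.583 CPM in paxillin DHT libraries, against 1.28, 0.948 and 0.58 CPM in paxillin vehicle libraries. It had 0.514, 0.959 and 0.525 CPM in nonspecific DHT libraries, against 0.978, 1.12 and 1.02 CPM in nonspecific vehicle libraries. Under nonspecific siRNA all 3 DHT values lay below the vehicle values, and under paxillin siRNA the groups overlapped. Its log2 fold changes of -0.26 ± 0.34 and -0.66 ± 0.37 did not pass (edgeR adjusted p = 0.596 and 0.166). At this depth the ratio of summed counts, DHT over vehicle, was 0.827 under paxillin siRNA with a 95% interval of 0.586 to 1.16, and 0.626 under nonspecific siRNA with an interval of 0.423 to 0.919, which cover counting error only.

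**Figure D2:**
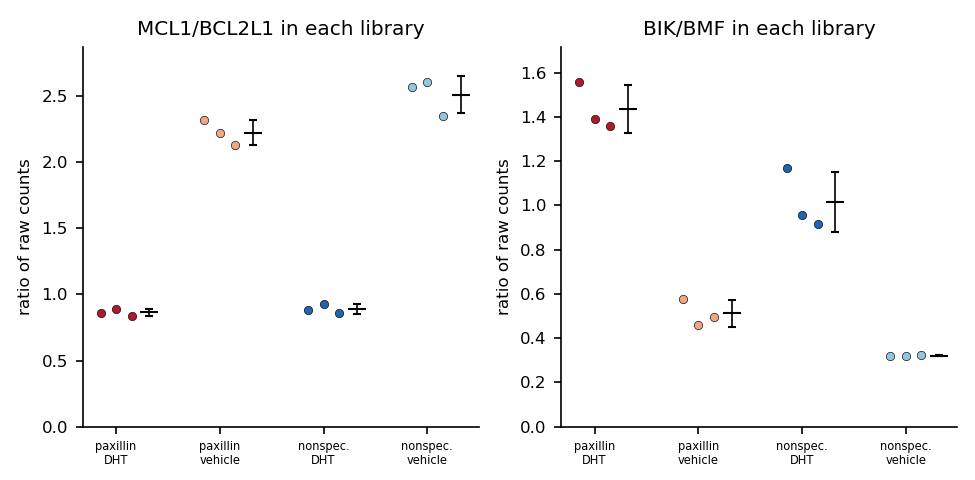
Ratio of raw counts of MCL1 to BCL2L1 (left) and of BIK to BMF (right), with 1 point per library in 4 groups of 3 and the mean and SD beside them. MCL1/BCL2L1 lies between 0.84 and 0.929 in DHT libraries and between 2.13 and 2.61 in vehicle libraries, and BIK/BMF is higher in DHT than in vehicle.

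The opposite moves of MCL1 and BCL2L1 show in their count ratio, which no scaling of library totals can alter. MCL1/BCL2L1 was 0.861, 0.891 and 0.84 in paxillin DHT libraries, against 2.32, 2.22 and 2.13 in paxillin vehicle libraries. It was 0.881, 0.929 and 0.859 in nonspecific DHT libraries, against 2.57, 2.61 and 2.35 in nonspecific vehicle libraries. The DHT and vehicle groups were far apart under both siRNAs, with an exact 2-sided permutation p of 0.1 each, the smallest that 3 against 3 libraries allow. Since the ratio is not per length, it compares groups and not the abundance of the 2 genes. Summed over the 4 survival members, the level averaged 442 ± 1 CPM in paxillin DHT and 482 ± 7.77 CPM in paxillin vehicle, and 455 ± 4.51 CPM in nonspecific DHT and 505 ± 1.73 CPM in nonspecific vehicle (SD, n = 3 each). The summed level was thus lower in each DHT library than in any vehicle library of the same siRNA, and it is made up largely of MCL1 and BCL2L1.

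BMF, a BH3-only gene tied to detachment from the matrix and to the cytoskeleton, fell most among the well-measured members (chromosome 15, 40087890 to 40108892). It stood at 20.2, 23.4 and 21.5 CPM in paxillin DHT libraries, against 39.0, 44.7 and 44.1 CPM in paxillin vehicle libraries. It stood at 24.4, 27.7 and 28.2 CPM in nonspecific DHT libraries, against 49.9, 47.9 and 47.4 CPM in nonspecific vehicle libraries. No DHT library reached any vehicle library. The log2 fold changes were -0.97 ± 0.08 and -0.85 ± 0.08 under paxillin and nonspecific siRNA (edgeR adjusted p = 2.13e-08 and 1.33e-07).

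BIK, a BH3-only gene whose protein resides at the endoplasmic reticulum (chromosome 22, 43110748 to 43129712), rose. It stood at 31.5, 32.5 and 29.2 CPM in paxillin DHT libraries, against 22.5, 20.5 and 21.9 CPM in paxillin vehicle libraries. It stood at 28.6, 26.5 and 25.8 CPM in nonspecific DHT libraries, against 15.9, 15.4 and 15.3 CPM in nonspecific vehicle libraries. The nonspecific vehicle group was the lowest of the 4 and the paxillin DHT group the highest, with no overlap between any of them. DHT raised BIK 1.43-fold under paxillin siRNA and 1.74-fold under nonspecific siRNA (edgeR adjusted p = 2.29e-05 and 2.52e-07). The BIK/BMF count ratio was 1.56, 1.39 and 1.36 in paxillin DHT libraries, against 0.578, 0.46 and 0.498 in paxillin vehicle libraries. It was 1.17, 0.958 and 0.916 in nonspecific DHT libraries, against 0.319, 0.321 and 0.322 in nonspecific vehicle libraries. All 4 groups were apart in this ratio, and the exact permutation p was 0.1 for each DHT and each siRNA comparison, the smallest possible.

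BCL2L11, which encodes BIM, a BH3-only protein that binds all survival members (chromosome 2, 111119378 to 111168447), moved little. It stood at 29.1, 31.4 and 34.2 CPM in paxillin DHT libraries, against 34.3, 34.5 and 33.3 CPM in paxillin vehicle libraries. In nonspecific DHT libraries it stood at 29.1, 30.5 and 30.2 CPM, against 32.4, 37.5 and 37.0 CPM in nonspecific vehicle libraries. The first pair of groups overlapped and the other did not. It fell under nonspecific siRNA by 0.26 on the log2 scale (log2 fold change -0.26 ± 0.08, edgeR adjusted p = 0.0119), and the adjusted p was 0.061 without nonspecific vehicle replicate 2 and 0.0518 without replicate 3. Under paxillin siRNA the log2 fold change was -0.11 ± 0.07 (edgeR adjusted p = 0.261).

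BAD, a BH3-only gene whose protein is held inactive by survival kinases (chromosome 11, 64269830 to 64284704), overlapped between DHT and vehicle. It averaged 51.2 ± 3.22 CPM in paxillin DHT and 54.2 ± 1.09 CPM in paxillin vehicle, and 43.9 ± 0.465 CPM in nonspecific DHT and 43.7 ± 4.64 CPM in nonspecific vehicle (SD, n = 3 each). The log2 fold changes were -0.08 ± 0.07 and 0.01 ± 0.07 (edgeR adjusted p = 0.405 and 0.93).

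HRK, a BH3-only gene best known from neurons (chromosome 12, 116856144 to 116881441), was near the detection limit. It had 9, 0 and 2 counts in paxillin DHT libraries, against 19, 22 and 9 counts in paxillin vehicle libraries. It had 2, 1 and 4 counts in nonspecific DHT libraries, against 5, 13 and 13 counts in nonspecific vehicle libraries. In CPM, DHT and vehicle libraries did not overlap under either siRNA. The ratio of summed counts, scaled to library totals, was 0.23 under paxillin siRNA (95% interval 0.108 to 0.448) and 0.20 under nonspecific siRNA (95% interval 0.0744 to 0.463), which cover counting error only. The edgeR adjusted p-values were 0.011 and 0.017. At its DHT levels HRK would not have been tested without its higher vehicle libraries, so the filter and the test drew on the same vehicle values. Under paxillin siRNA the adjusted p was 0.0546 when vehicle replicate 2 was left out. Under nonspecific siRNA it was 0.0518 when vehicle replicate 2 was left out, and 0.0513 and 0.068 when DHT replicate 1 or 2 was. Summed over the 5 BH3-only members, the level averaged 136 ± 4.51 CPM in paxillin DHT and 153 ± 3 CPM in paxillin vehicle, and 128 ± 1.73 CPM in nonspecific DHT and 144 ± 4.04 CPM in nonspecific vehicle (SD, n = 3 each). Like the survival sum, it was lower in each DHT library than in any vehicle library of the same siRNA. Neither sum is per length, so long transcripts weigh more than short ones. Per kb of exon, BIK averaged 32.6 CPM in paxillin DHT and 22.7 in paxillin vehicle, and 28.3 and 16.3 with nonspecific siRNA. BMF averaged 3.98 and 7.82, and 4.91 and 8.89, in the same groups. The direction of the BH3-only sum therefore depends on this weighting.

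BNIP3L, a receptor that marks mitochondria for mitophagy (chromosome 8, 26382898 to 26505636), rose slightly. It stood at 181, 184 and 173 CPM in paxillin DHT libraries, against 150, 160 and 140 CPM in paxillin vehicle libraries. It stood at 211, 205 and 194 CPM in nonspecific DHT libraries, against 161, 192 and 174 CPM in nonspecific vehicle libraries. The groups did not overlap, although the nonspecific ones nearly met. The log2 fold changes were 0.26 ± 0.07 and 0.21 ± 0.07 (edgeR adjusted p = 0.0065 and 0.0216). With upper-quartile scaling the adjusted p-values were 0.0633 and 0.133. Under nonspecific siRNA the adjusted p was 0.0963 and 0.0602 without vehicle replicate 1 or 3, and 0.0756 and 0.0595 without DHT replicate 1 or 2.

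**Figure D3:**
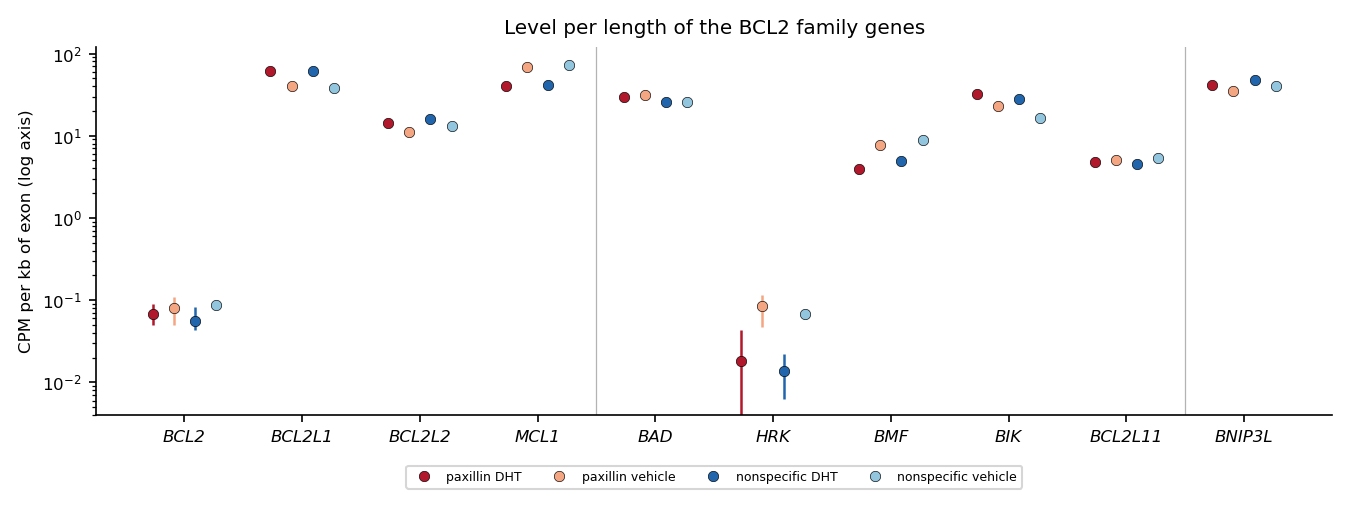
Mean level per length of each gene on a log axis, in CPM per kb of exon, for the 4 groups, with lines from the lowest to the highest of 3 libraries (the line of HRK in paxillin DHT, which has a library at 0, ends at the axis). Survival members are on the left, BH3-only members in the middle and BNIP3L on the right, and BCL2 and HRK lie below 0.1 CPM per kb in every group mean.

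Per kb of exon, using the exon lengths of GENCODE 29, MCL1 and BCL2L1 changed places between treatments. In paxillin DHT, BCL2L1 averaged 61.8 ± 0.861 CPM per kb, followed by BNIP3L at 41.7 ± 1.31 and MCL1 at 40.5 ± 0.671 CPM per kb, whose ranges overlapped. In paxillin vehicle, MCL1 led at 68.5 ± 2.24 CPM per kb, ahead of BCL2L1 at 40.6 ± 0.858 and BNIP3L at 34.8 ± 2.28 CPM per kb. In nonspecific DHT the order was BCL2L1 at 61.8 ± 1.42, BNIP3L at 47.3 ± 2 and MCL1 at 41.6 ± 1.37 CPM per kb, with no overlap. In nonspecific vehicle MCL1 led at 73.4 ± 1.42 CPM per kb, and BNIP3L at 40.7 ± 3.69 and BCL2L1 at 38.6 ± 1.5 CPM per kb overlapped (SD, n = 3 each). BIK and BAD came next, with BIK above BAD in DHT and BAD above BIK in vehicle. Their ranges overlapped in paxillin DHT, where BIK averaged 32.6 ± 1.78 and BAD 30.0 ± 1.88 CPM per kb, and not in the other 3 groups. BCL2L2 followed at group means of 11.2 to 16.1 CPM per kb. BMF was above BCL2L11 in both vehicle groups, below it in paxillin DHT, and overlapped it in nonspecific DHT. The counts of BCL2 and HRK were lowest, at group means of 0.0136 to 0.0883 CPM per kb.

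By size of log2 fold change, paxillin siRNA moved most members less than DHT did. In vehicle, BIK and BAD were higher and BCL2L2 and BNIP3L lower with paxillin siRNA. In DHT, only BMF and BCL2L2 passed in the fit without pairing by replicate number, both lower. With the replicate number as a block, BAD and BIK passed there as higher and BNIP3L as lower. MCL1, BCL2L1, BCL2L11, BCL2 and HRK did not pass in either treatment.

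In DHT, 2 of 10 members passed edgeR, both lower, where 13.3% of tested genes passed, 6.34% higher and 7% lower. In vehicle, 4 of 10 passed, 2 higher and 2 lower, where 20.5% of tested genes passed, 10.7% higher and 9.78% lower. The libraries of the siRNAs did not overlap for 5 members in DHT (2 higher, 3 lower), as for 32.1% of tested genes, 16.1% higher and 16% lower. In vehicle they did not overlap for 6 members (2 higher, 4 lower), as for 35.9% of tested genes, 18.1% higher and 17.7% lower. The members' median absolute log2 fold change was 0.19 in DHT and 0.21 in vehicle, against 0.16 and 0.18 over all tested genes. With the replicate number as a block, 5 members passed in DHT, 2 higher and 3 lower, and 3486 genes in all passed there, against 2149 without the block. The member count in DHT rested on single libraries, since it was 0 without nonspecific DHT replicate 2 or 3 or paxillin DHT replicate 1 or 3, and 1 when paxillin DHT replicate 2, or replicate 1 or 2 of paxillin vehicle, was left out. In vehicle it was 2 without nonspecific vehicle replicate 2 or paxillin vehicle replicate 1. The vehicle comparison uses the same nonspecific vehicle libraries as the DHT comparison under nonspecific siRNA, and the DHT comparison the same nonspecific DHT libraries.

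BIK had the largest siRNA difference that passed, 21.7 ± 1.02 CPM in paxillin vehicle and 15.5 ± 0.335 CPM in nonspecific vehicle (SD, n = 3 each). The log2 fold change was 0.48 ± 0.08 in vehicle (edgeR adjusted p = 0.000412). In DHT it was 0.20 ± 0.07 (edgeR adjusted p = 0.0757, and 0.0374 with the replicate block), although the groups did not overlap. BAD stood at 53.4, 55.4 and 53.7 CPM in paxillin vehicle libraries, against 44.4, 38.7 and 47.9 CPM in nonspecific vehicle libraries. It stood at 49.7, 49.0 and 54.9 CPM in paxillin DHT libraries, against 43.5, 43.8 and 44.4 CPM in nonspecific DHT libraries. All 6 paxillin libraries lay above all 6 nonspecific libraries. The BAD log2 fold change was 0.31 ± 0.07 in vehicle and 0.22 ± 0.07 in DHT (edgeR adjusted p = 0.00611 and 0.0533). In DHT the BAD adjusted p was 0.0169 with the replicate block and 0.0419 in a fit of the compared groups alone, so that this call turned on the fit.

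BCL2L2 was lower with paxillin siRNA, by -0.18 ± 0.06 in DHT and -0.23 ± 0.06 in vehicle on the log2 scale (edgeR adjusted p = 0.0497 and 0.0121). The DHT value sat at the threshold, and its adjusted p was 0.0565 with RLE scaling, 0.0539 with DESeq2, 0.208 with no filter on low counts and up to 0.176 when a single library was left out. In vehicle it was 0.0531 without nonspecific vehicle replicate 2, 0.0504 and 0.0663 without paxillin vehicle replicate 1 or 2, and 0.0711 with no filter on low counts. BMF averaged 21.7 ± 1.64 CPM in paxillin DHT and 26.8 ± 2.04 CPM in nonspecific DHT, with a log2 fold change of -0.30 ± 0.08 (edgeR adjusted p = 0.0189). That adjusted p was 0.078 and 0.0785 without nonspecific DHT replicate 2 or 3, and 0.0673 and 0.0555 without paxillin DHT replicate 1 or 3. In vehicle BMF averaged 42.6 ± 3.12 CPM with paxillin siRNA and 48.4 ± 1.31 CPM with nonspecific siRNA, with a log2 fold change of -0.18 ± 0.08 (edgeR adjusted p = 0.104, and 0.0445 with the replicate block). BMF and BCL2L2 were thus lower with paxillin siRNA in both treatments by size, and not in every fit by test.

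BNIP3L averaged 180 ± 5.64 CPM in paxillin DHT and 204 ± 8.63 CPM in nonspecific DHT, and 150 ± 9.83 CPM in paxillin vehicle and 175 ± 15.9 CPM in nonspecific vehicle (SD, n = 3 each). The log2 fold changes were -0.18 ± 0.07 and -0.23 ± 0.07 (edgeR adjusted p = 0.0973 and 0.0278). With the replicate block the adjusted p in DHT was 0.0258. In vehicle it was 0.188 and 0.0611 without nonspecific vehicle replicate 2 or 3, 0.0601 and 0.152 without paxillin vehicle replicate 1 or 3, and 0.0631 in a fit of the compared groups alone. MCL1 and BCL2L1 did not pass for the siRNA. In vehicle, however, all 3 paxillin libraries lay below all 3 nonspecific libraries for MCL1, and MCL1/BCL2L1 averaged 2.22 ± 0.095 in paxillin vehicle and 2.51 ± 0.14 in nonspecific vehicle, without overlap (exact 2-sided permutation p = 0.1, the smallest possible). In DHT the ratio averaged 0.864 ± 0.0256 in paxillin libraries and 0.89 ± 0.0358 in nonspecific libraries (exact permutation p = 0.5). MCL1 had log2 fold changes of -0.04 ± 0.06 in DHT and -0.10 ± 0.05 in vehicle (edgeR adjusted p = 0.687 and 0.218), and BCL2L1 had 0.00 ± 0.05 and 0.07 ± 0.05 (edgeR adjusted p = 0.991 and 0.399). BCL2L11 had 0.07 ± 0.08 and -0.07 ± 0.08 (edgeR adjusted p = 0.576 and 0.547). BCL2 and HRK, with few counts, had ratios of summed counts in vehicle, paxillin over nonspecific siRNA, of 0.902 (95% interval 0.645 to 1.26) and 1.22 (95% interval 0.765 to 1.98).

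**Figure D4:**
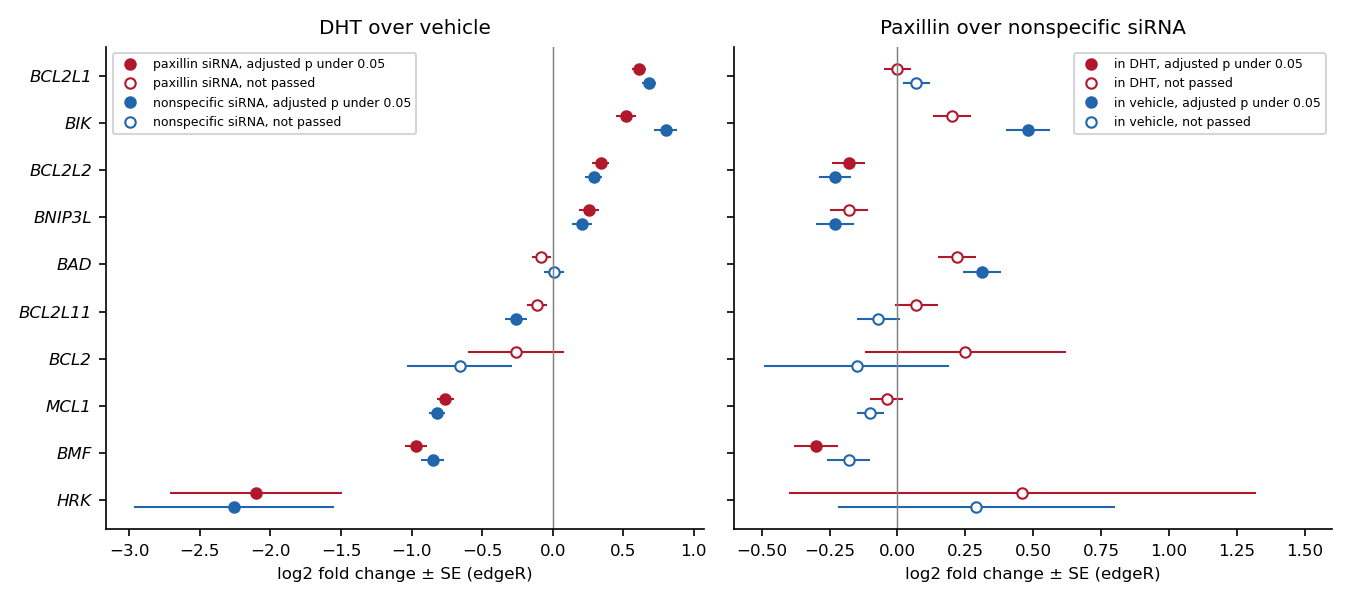
Log2 fold change ± SE (edgeR) of each gene for DHT over vehicle under paxillin and nonspecific siRNA (left) and for paxillin over nonspecific siRNA in DHT and in vehicle (right), with filled points at an adjusted p under 0.05 and open points for those that did not pass. The DHT changes run from -2.26 for HRK to 0.80 for BIK, with BCL2 at -0.26 and -0.66 and BIK at 0.52 and 0.80 under paxillin and nonspecific siRNA, and the siRNA changes that passed lie between -0.30 and 0.48. HRK entered the test only through its vehicle libraries.

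Whether paxillin siRNA changed the DHT response of a gene was tested as an interaction. None of the 10 members passed (0 of 10), where 0.0496% of tested genes passed, 0.0372% higher and 0.0124% lower. The count was also 0 with DESeq2, limma-voom, the replicate block and every other alternative tried. One member, BIK, had an unadjusted p under 0.05. Its DHT rise was 1.43-fold under paxillin siRNA and 1.74-fold under nonspecific siRNA, and the difference of log2 fold changes was -0.28 ± 0.11 (edgeR unadjusted p = 0.018, adjusted p = 0.46). For MCL1, BCL2L1 and BMF the differences were 0.06 ± 0.08, -0.07 ± 0.08 and -0.12 ± 0.11 (edgeR adjusted p = 0.866, 0.834 and 0.792). For HRK the SE of 0.94 leaves the difference of 0.16 unresolved at this depth. A value that misses the threshold does not show that the responses were alike.

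Reads can be shared with neighbours, because the strand setting of the counting is not given in the sources used here, although the library kit keeps strand. ABALON, GPR137, PPP1R3E and PNMA2 were singled out for their overlap after values were seen. ABALON lies antisense to BCL2L1 over 1424 exonic bases and averaged 0.174 to 0.466 CPM per group, against 128 to 205 CPM for BCL2L1. Its DHT log2 fold change was -1.23 ± 0.48 under paxillin siRNA, on 14 counts in paxillin DHT and 35 in paxillin vehicle, and -0.08 ± 0.42 under nonspecific siRNA (edgeR adjusted p = 0.0494 and 0.895). The first adjusted p was 0.0974 with DESeq2, 0.0593 with limma-voom, 0.128 with no filter on low counts and up to 0.179 when 1 library was left out. BCL2L2-PABPN1, a readthrough transcript on the same strand that shares 813 exonic bases with BCL2L2, had 6 to 13 counts per group. GPR137 overlaps BAD on the opposite strand over 404 exonic bases and stood at group means of 62.6 to 87.6 CPM. GPR137 fell with DHT, by -0.39 ± 0.07 and -0.34 ± 0.07 on the log2 scale (edgeR adjusted p = 0.000264 and 0.000881), while BAD did not pass. MIR4435-2HG shares 727 exonic bases with BCL2L11 on the opposite strand, stood at group means of 1.49 to 4.01 CPM, and was higher with paxillin siRNA in DHT and in vehicle (log2 fold changes 0.81 ± 0.22 and 0.89 ± 0.21, edgeR adjusted p = 0.0214 and 0.00537). In DHT that adjusted p was 0.104, 0.0551 and 0.0702 without nonspecific DHT replicate 2 or paxillin DHT replicate 2 or 3. BMF-AS1 lies antisense to BMF over 461 exonic bases and is not among the counted symbols, so its level is not known. On the opposite strand, PPP1R3E shares 206 exonic bases with BCL2L2 and stood at group means of 12.2 to 17.4 CPM. PNMA2 shares 330 with BNIP3L on the opposite strand and stood at 0.349 to 0.858 CPM. The part of these neighbours in the members' values was not tested.

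Of 13 other BCL2 relatives listed, 9 were tested. With DHT, 2 rose and 0 fell under paxillin siRNA, where 38% of all tested genes passed, and 3 rose and 0 fell under nonspecific siRNA, where 40.5% passed. BNIP3, the paralog of BNIP3L and likewise a mitophagy receptor, rose 1.70-fold and 1.66-fold under paxillin and nonspecific siRNA, with means of 516 ± 35.2 CPM in paxillin DHT and 304 ± 32.3 CPM in paxillin vehicle, and of 534 ± 35.1 CPM in nonspecific DHT and 321 ± 68.8 CPM in nonspecific vehicle. BOK, a BAX-like effector, rose 1.21-fold and 1.46-fold. BAK1, an effector, rose under nonspecific siRNA by 0.25 on the log2 scale (edgeR adjusted p = 0.0234, but 0.0971 with upper-quartile scaling, 0.059 and 0.06 without nonspecific vehicle replicate 2 or 3, and 0.0967 without nonspecific DHT replicate 3) and had 0.15 under paxillin siRNA (edgeR adjusted p = 0.161). The effector BAX had DHT log2 fold changes of 0.05 and 0.23 (edgeR adjusted p = 0.749 and 0.0763). With paxillin siRNA, BAX was lower in DHT, the 1 gene of the 9 that passed there, at 39.5 ± 5.37 CPM in paxillin DHT and 50.7 ± 3.17 CPM in nonspecific DHT (log2 fold change -0.36 ± 0.10, edgeR adjusted p = 0.0229). That adjusted p was 0.0874 and 0.0707 without nonspecific DHT replicate 1 or 2, and 0.0806 and 0.115 without paxillin DHT replicate 2 or 3. The share of all tested genes that passed for the siRNA was 13.3% in DHT and 20.5% in vehicle. In vehicle 3 rose, namely BID, BOK and BCL2L12, by 0.29, 0.30 and 0.28 on the log2 scale (edgeR adjusted p = 0.00791, 0.00398 and 0.0179). For BCL2L12 it was 0.0795 without nonspecific vehicle replicate 2 and 0.0641 without paxillin vehicle replicate 2. The p53-linked BH3-only genes BBC3 and PMAIP1, named after their values were seen, passed edgeR in none of these 4 comparisons, with adjusted p-values of 0.118 to 0.86 for BBC3 and 0.194 to 0.652 for PMAIP1.

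Downstream genes moved both ways. All 15 apoptosome, caspase and mitochondrial death genes were tested, and with DHT 5 rose and 5 fell under paxillin siRNA (38% of all tested genes passed), and 5 rose and 3 fell under nonspecific siRNA (40.5% passed). The executioner caspase CASP6 fell by -0.69 and -0.97 on the log2 scale under paxillin and nonspecific siRNA (edgeR adjusted p = 0.000353 and 1.21e-05). The nuclease ENDOG rose by 0.40 and 0.51, and CYCS, which encodes cytochrome c, by 0.23 and 0.45, the first not past the threshold with upper-quartile scaling (edgeR adjusted p = 0.106). With paxillin siRNA, 2 rose and 1 fell in DHT (13.3% of all tested genes passed), and 4 rose and 1 fell in vehicle (20.5% passed). CASP10, an initiator caspase of death receptors, averaged 12.8 ± 3.76 CPM in paxillin DHT and 4.99 ± 0.428 CPM in nonspecific DHT, and 17.7 ± 5.27 CPM in paxillin vehicle and 6.27 ± 0.672 CPM in nonspecific vehicle. Its log2 fold changes of 1.35 ± 0.22 and 1.48 ± 0.22 (edgeR adjusted p = 0.000731 and 0.000178) exceed those of any listed member for the siRNA.

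Among 7 inhibitors of apoptosis, 5 were tested. With DHT, XIAP, which blocks caspases, rose by 0.20 and 0.16 under paxillin and nonspecific siRNA, while BIRC5 (survivin) fell under paxillin siRNA by -0.31 and BIRC2 under nonspecific siRNA by -0.32. With upper-quartile scaling XIAP had edgeR adjusted p = 0.126 and 0.225, and under nonspecific siRNA it had 0.0872 without vehicle replicate 1 and 0.0672 and 0.0779 without DHT replicate 2 or 3. BIRC5 had 0.0505 and 0.074 without paxillin vehicle replicate 2 or paxillin DHT replicate 1. With paxillin siRNA, none passed edgeR in DHT, and BIRC2 fell in vehicle by -0.32, with an adjusted p of 0.059 and 0.06 without nonspecific vehicle replicate 2 or 3 and 0.0727 without paxillin vehicle replicate 3. Of 12 death receptor genes, 11 were tested, and with DHT 4 rose and 2 fell under paxillin siRNA, and 4 rose and 1 fell under nonspecific siRNA. For both lists the shares of all tested genes that passed were 38% and 40.5% for DHT, and 13.3% in DHT and 20.5% in vehicle for the siRNA. The TRAIL receptors TNFRSF10A and TNFRSF10B rose by 0.50 and 0.80 under paxillin siRNA and by 0.75 and 0.81 under nonspecific siRNA. TNFRSF10D, a decoy receptor, fell by -0.34 and -0.30 under paxillin and nonspecific siRNA. TNFRSF10C of the same list did not pass for DHT (-0.18 and -0.05, edgeR adjusted p = 0.351 and 0.848). With paxillin siRNA, 2 rose and 2 fell in DHT, and 3 rose and 1 fell in vehicle. TNFRSF10C rose by 0.73 and 0.86 in DHT and in vehicle, and TNFSF10, which encodes TRAIL, had 1.14 and 1.29 (edgeR adjusted p = 0.0485 and 0.0247). For TNFSF10 limma-voom gave 0.0736 and 0.0655, and leaving out 1 library gave up to 0.231 in DHT (without paxillin DHT replicate 3) and 0.188 in vehicle (without paxillin vehicle replicate 3).

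All 22 listed regulators of the family were tested. With DHT, 8 rose and 2 fell under paxillin siRNA, and 7 rose and 2 fell under nonspecific siRNA, where 38% and 40.5% of all tested genes passed. DYNLL2, the dynein light chain that tethers BMF, rose by 0.42 and 0.41 and YWHAG, a 14-3-3 protein of the kind that binds BAD, by 0.36 and 0.33, while DDIT3 (CHOP), a stress factor known to induce BCL2L11, fell by -0.52 and -0.57. FOXO1 rose under paxillin siRNA by 0.59 (edgeR adjusted p = 0.00683) and had 0.20 under nonspecific siRNA (edgeR adjusted p = 0.347). With paxillin siRNA, 0 rose and 1, FOXO4, fell in DHT, and 2 rose and 4 fell in vehicle, where E2F1 rose by 0.47 and FOXO1 fell by -0.52 (13.3% of all tested genes passed in DHT and 20.5% in vehicle). FOXO4 in DHT had an edgeR adjusted p of up to 0.151 when 1 library was left out (without nonspecific DHT replicate 1), and FOXO1 in vehicle up to 0.161 (without paxillin vehicle replicate 3). Of 8 mitophagy genes, which include BNIP3L and BNIP3 from above, 6 were tested, and with DHT 2 rose and 1 fell under paxillin siRNA, and 3 rose and 1 fell under nonspecific siRNA. PINK1, the kinase of the parallel mitophagy route, fell by -0.49 and -0.52 on the log2 scale where BNIP3 and BNIP3L rose. With paxillin siRNA, 0 rose and 1 fell in DHT, and 0 rose and 2 fell in vehicle. The same shares of all tested genes apply. No gene of these lists passed the edgeR interaction test.

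**Figure D5:**
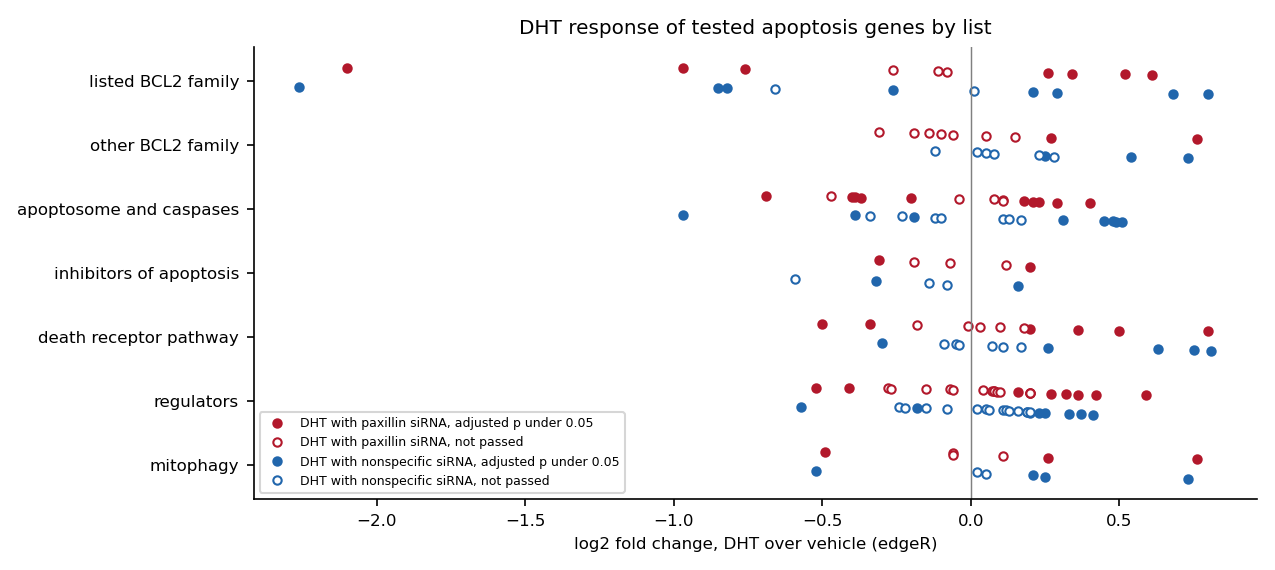
Log2 fold change (edgeR) for DHT over vehicle of each tested gene in 7 lists, under paxillin siRNA (upper row of a list, red) and nonspecific siRNA (lower row, blue), with filled points at an adjusted p under 0.05. The lowest values, -2.10 and -2.26, are those of HRK, which entered the test only through its vehicle libraries. Every list has genes that passed in either direction except the other BCL2 family genes, of which 2 and 3 rose and 0 fell.

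The genes whose pattern was most like a member were sought for the 3 members with the largest mean DHT change, by Pearson's r of log2 CPM over the 12 libraries among the genes of at least 5 CPM (9478 other genes for MCL1 and BMF, 9479 for HRK). These r values are descriptions over libraries that fall into DHT and vehicle sets, so any gene with a strong DHT response in the same direction scores high. MYH10 was among the 2 genes most like MCL1 (r = 0.991), with DHT log2 fold changes of -0.60 and -0.79 under paxillin and nonspecific siRNA. BMF was most like ANTXR1 (r = 0.989) and ST7 (r = 0.986), and HRK, over few counts, most like MBNL2 (r = 0.892) and SCYL3 (r = 0.890).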

How the data were processed

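Stranded TruSeq mRNA libraries were made from 12 samples, per the labels. The authors deposited raw counts per gene symbol. Trimmomatic 0.36, STAR 2.5.2b and featureCounts of Subread 1.5.0p3 with GRCh38 are named, per the submitters' processing notes. Neither annotation release nor strand setting is given in the sources used here.

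Counts of all symbols were filtered with filterByExpr (minimum count 10, minimum total 15), which kept 16115 genes, scaled by TMM and fitted as 4 group means over 12 libraries with the quasi-likelihood test of edgeR 4.0.16 in R 4.3.3. Benjamini-Hochberg adjustment ran over all tested genes, with calls under 0.05. SEs come from the F statistic. The members, the gene lists and the rules were chosen with earlier results of these data known. All 10 members are named, with up to 3 rising and 3 falling genes of each other list per comparison. Some genes that these rules pick are not reported here. CPM for likeness used a prior count of 2. Coordinates and exon lengths are from GENCODE 29 on GRCh38, and promoter windows from RefSeq. Floors and intervals of counts cover counting error only.

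Within groups, replicates differed beyond sampling noise (chi-square per degree of freedom 6.19 to 18.7 over 12 pairs), so all were counted. Replicate numbers recur in the 4 groups. Over 10701 genes, deviations from group means had correlations of 0.14 to 0.48 (median 0.27) for the 18 same-numbered pairs. For the 36 others they were -0.43 to 0.21 (median -0.11). The ranges overlapped, but the same-numbered pairs lay higher by median, so the numbers may pair the libraries. The main fit, its counts and the permutation tests are unpaired, and a pairing by number enters only as an alternative with the replicate block. Scripts were tested on simulated data. The members' fold changes and the counts of calls were recomputed with DESeq2 1.42.0 and limma-voom (limma 3.58.1), with upper-quartile or RLE scaling, unfiltered, with replicate number as a block, in fits of the compared groups only, at an adjusted p under 0.01, and with each library left out in turn. The same was done, chosen after seeing the data, for the calls of 29 other named genes, and not for count ratios or summed levels.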

Additional observations from a re-analysis of the deposited data

How the results depend on the processing

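The DHT calls of MCL1, BCL2L1, BCL2L2, BMF and BIK held under both siRNAs in all alternatives. Over 988 refits of single members (HRK gave no value in 2 fits of compared groups alone), 931 stayed on the same side of the threshold, 47 lost the call and 10 gained it. The sign changed in 25, all of them results that passed in neither fit, and in none that passed in either. At an adjusted p under 0.01, members passing were 5 for DHT under nonspecific siRNA (where 4576 of 16115 genes passed), 0 for paxillin siRNA in DHT and 2 in vehicle, and genes passing in all were 954, 1651 and 0 for paxillin siRNA in DHT, in vehicle and the interaction. For paxillin siRNA in DHT, 1 member passed with RLE scaling and 1 with limma-voom. With the replicate block 5 members and 3486 genes passed there, and 97 genes passed the interaction; beyond the block values given beside BAD, BIK, BMF and BNIP3L, it changed no member's call. Genes passing the interaction, 8 in the main analysis, were 142 with no filter, 54 with DESeq2 and 0 with limma-voom. Leaving out 1 library gave 0 to 26 genes for the interaction, 1178 to 2417 for paxillin siRNA in DHT and 1848 to 3524 in vehicle. The lowest were without paxillin DHT replicate 3 and paxillin vehicle replicate 3, and values also moved over 1.5 times without nonspecific DHT replicate 2 (1269), paxillin DHT replicate 2 (1386) and nonspecific vehicle replicate 2 (1966). Members passing were then 0 to 2 and 2 to 4. Of 63 calls of 29 other named genes, 41 held in all these alternatives at 0.05, 22 were lost in at least 1 and none turned, and 20 were lost at 0.01. Depth limits HRK (0 to 22 counts per library) and BCL2 (12 to 39).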
